A study of Mus musculus with 9 samples.

Results

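Integrins are adhesion receptors made of an alpha and a beta chain, and 10 integrin subunit genes of ILC2s are described here: Itga4, Itgb1, Itgb7, Itgae, Itgal, Itgb2, Itgav, Itgb3, Itga1 and Itga2. They were taken by gene symbol, and all 10 were found among the 20732 genes of the count table. ILC2s are tissue-resident innate lymphocytes that make type 2 cytokines. Libraries came from pancreatic ILC2s of C57BL6/J mice given 200 ng of IL-33, an activating cytokine of ILC2s, on days 0 and 1 (5 libraries, the IL-33 group), or given PBS on the same days (4 libraries titled naive, the PBS group). Pancreata were taken on day 5, and live CD45+ cells lacking CD3, B220 and lineage markers and carrying KLRG1 were sorted. The mice carried no transgene or deletion named in the labels, and no age is given. The overall design description counts 4 IL-33 and 5 PBS mice, the reverse of the sample labels, which were followed. The labels do not tie each library to its own mouse, and p-values therefore reflect only the spread of these libraries, which may be technical.

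The chains pair in fixed ways. The alpha chain of Itga4 pairs with the beta chain of Itgb1 to bind VCAM-1 and fibronectin, or with that of Itgb7 to bind the gut addressin MAdCAM-1 as well. Itgb7 also pairs with Itgae, whose complex binds E-cadherin of epithelium. Itgal and Itgb2 form LFA-1, the receptor of leukocytes for ICAMs. Itgav and Itgb3 bind vitronectin and osteopontin, and Itga1 and Itga2 each pair with Itgb1 to bind collagens. In lymphocytes these receptors serve entry into tissue, retention and contact with matrix.

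Total counts lay between 15485122 and 21020023 in the IL-33 libraries and between 14216976 and 19725838 in the PBS libraries. Of the ILC2 marker list all 16 genes had counts, and Gata3, the lineage factor, had 2988 to 6803 CPM with IL-33 and 3751 to 5125 CPM with PBS. The list did not move as one. Arg1, Klrg1, Il5 and Il13 were higher in all IL-33 libraries than in all PBS libraries, and Il7r, Icos, Bcl11b and Hes1 lower, with Il7r at 159 to 317 CPM with IL-33 and 467 to 776 CPM with PBS. Of all genes tested, 15.3% lay above in this way and 10.8% below. Acinar marker genes took 0.506% to 16.3% of counts in the IL-33 libraries and 0.185% to 54.5% in the PBS libraries, with the highest share in PBS replicate 4. The TMM scaling factor of that library was 0.532, against 0.99 to 1.15 in the IL-33 libraries and 1.06 to 1.17 in the other PBS libraries. Levels of genes are given as CPM, counts relative to the library's effective size after TMM scaling, sums over marker lists as CPM of the raw total, and changes as log2 of IL-33 over PBS.

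Transcripts of Itga4, Itgb1 and Itgal were called higher with IL-33, and none of the 10 genes was called lower. Of 21 alternatives Itga4 kept its call in 21, Itgb1 in 19 and Itgal in 10. Of the 9 that passed the filter on low counts, 3 had an adjusted p below 0.05 and a higher level with IL-33, where 13.7% of all 14405 genes tested were called higher, and 0 were called lower, against 11.6% of all genes. At an unadjusted p below 0.05, 3 were higher and 0 lower, where 19.4% and 18% of all genes were. DESeq2 and limma voom also called 3 higher and 0 lower, against 15.6% and 16.2% of all genes with DESeq2 and 15.4% and 14.4% with limma voom. The median log2 change of the 9 genes was 0.23, against -0.052 for all genes tested. Itga1 did not pass the filter. In sorted bulk RNA, a change in the make-up of the sorted cells and a change of RNA per cell cannot be told apart.

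**Figure D1:**
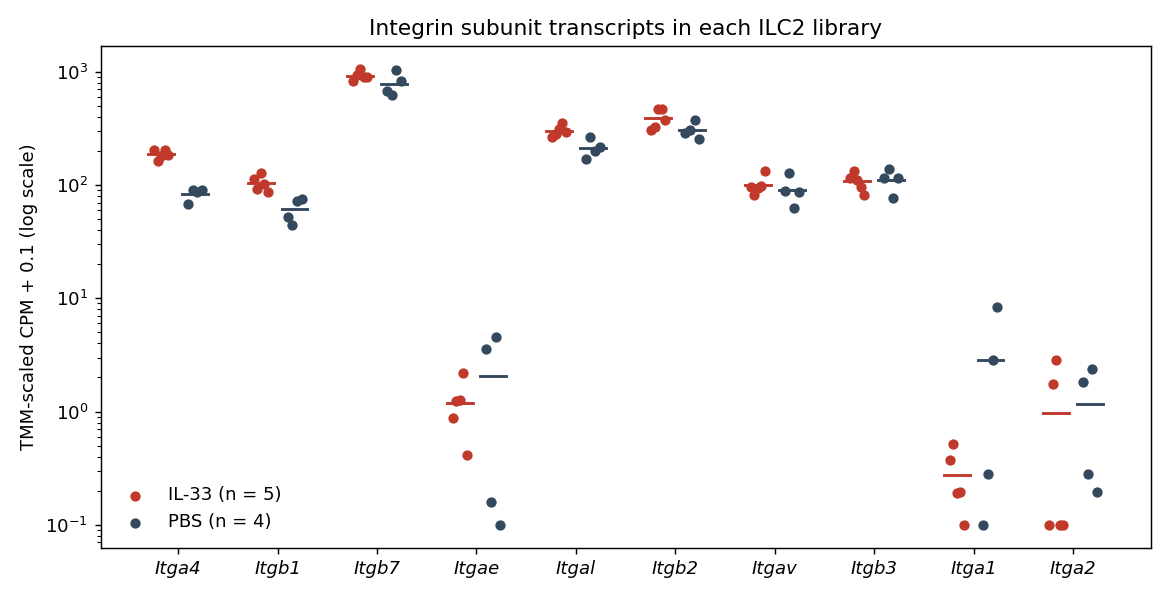
Level of each of the 10 integrin subunit genes in every library, as TMM-scaled CPM plus 0.1 on a log axis, with IL-33 libraries (red, n = 5) left of PBS libraries (dark, n = 4) and a bar at the group mean. Itga4 and Itgb1 separate the groups, Itgb7 has the highest levels in both, and Itgae, Itga1 and Itga2 lie at or below 8.21 CPM in every library.

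Itga4 encodes the alpha chain shared by the Itgb1 and Itgb7 complexes and had the clearest difference. It lies on chromosome 2 (79255426 to 79333123, plus strand, GRCm38). Its level was 204, 163, 181, 203 and 185 CPM in IL-33 replicates 1 to 5, against 67.8, 90.6, 86.5 and 90.7 CPM in PBS replicates 1 to 4. Every IL-33 library was above every PBS library, which was the case for 15.3% of all genes tested. The mean was 187 ± 16.9 CPM (SD, n = 5) with IL-33 and 83.9 ± 10.9 CPM (SD, n = 4) with PBS, which gave a log2 change of 1.16 with an SE of 0.12 (adjusted p = 2.8e-04 by edgeR's quasi-likelihood test with Benjamini-Hochberg adjustment). It was called under all 21 alternatives tried, with edgeR, DESeq2 or limma adjusted p from 3.8e-14 to 0.0202. Long genes as a whole lay lower with IL-33, the longest of 5 equal groups by exon length having a median log2 change of -0.47, while the exons of Itga4 span 13978 bases. With the trend with length and GC content removed, its log2 change was 1.83. On the opposite strand Cerkl overlaps 8.04% of the exon length of Itga4, and Cerkl itself had 36 to 133 counts in the IL-33 libraries and 0 to 48 in the PBS libraries, against 950 or more for Itga4.

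Itgb1 encodes the beta chain that also serves the collagen receptors (chromosome 8, 128685654 to 128733200, plus strand). Its level was 113, 92.5, 127, 103 and 86.3 CPM in IL-33 replicates 1 to 5, against 51.9, 44.2, 72.6 and 75.9 CPM in PBS replicates 1 to 4. The groups did not overlap, with the lowest IL-33 library (replicate 5) just above the highest PBS library (replicate 4). The log2 change was 0.77 ± 0.19 (SE, edgeR adjusted p = 0.0163). The call was lost without IL-33 replicates 1, 2 and 3 together, the IL-33 libraries richest in erythroid marker counts (log2 change 0.64, edgeR adjusted p = 0.178), a choice added once the data had been seen.

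Itgb7, the other beta partner of Itga4 and the partner of Itgae, lies on chromosome 15 (102215995 to 102231944, minus strand). It had 834, 930, 1063, 905 and 897 CPM in IL-33 replicates 1 to 5, against 672, 620, 1028 and 828 CPM in PBS replicates 1 to 4. The groups overlapped through PBS replicate 3, which was above all IL-33 libraries but 1. The log2 change was 0.23 (95% interval -0.11 to 0.58, edgeR adjusted p = 0.296), so a fall below 0.928-fold or a rise above 1.49-fold lay outside the interval. With the trend with length and GC content removed the change was -0.010.

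The sequences just upstream of these 3 genes are given because Itga4 and its partner Itgb1 rose while the other partner, Itgb7, was not called. Each is the 250 bases before the RefSeq start (GRCm38.p6), at chr2:79255176-79255425 on the plus strand for Itga4, chr8:128685404-128685653 on the plus strand for Itgb1 and chr15:102231936-102232185 on the minus strand for Itgb7, and capitals mark matches to the motifs named after them.
Itga4: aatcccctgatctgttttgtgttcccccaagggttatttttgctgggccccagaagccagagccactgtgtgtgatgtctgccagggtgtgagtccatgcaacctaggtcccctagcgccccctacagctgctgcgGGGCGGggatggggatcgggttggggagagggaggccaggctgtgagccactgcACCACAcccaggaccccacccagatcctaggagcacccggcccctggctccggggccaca
Itgb1: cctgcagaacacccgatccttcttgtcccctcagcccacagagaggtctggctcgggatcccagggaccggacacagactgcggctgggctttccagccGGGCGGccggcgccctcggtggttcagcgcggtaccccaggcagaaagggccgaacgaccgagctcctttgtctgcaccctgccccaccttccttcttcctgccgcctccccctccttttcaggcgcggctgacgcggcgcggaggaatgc
Itgb7: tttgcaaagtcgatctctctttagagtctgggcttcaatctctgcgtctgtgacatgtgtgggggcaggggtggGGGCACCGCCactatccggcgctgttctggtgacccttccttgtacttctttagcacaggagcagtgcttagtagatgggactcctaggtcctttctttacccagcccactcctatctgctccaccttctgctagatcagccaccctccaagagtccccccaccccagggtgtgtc
Both strands were searched for short letter patterns. The pattern for factors of the GATA family was AGATAA, and that for ETS factors was CCGGAAG. For RUNX factors it was TGTGGT, for AP-1 factors it was TGANTCA and for Sp1 and KLF factors it was GGGCGG. For STAT factors it was TTCNNNGAA, and for NF-kB it was GGG followed after 5 bases of any kind by CC. Itga4 had the RUNX letters on the minus strand 60 to 55 bases before the start and the GGGCGG letters 114 to 109 bases before it. Itgb1 had the GGGCGG letters 151 to 146 bases before the start. Itgb7 had 1 match to the NF-kB letters, 176 to 167 bases before it, and no matches overlapped. Among 32851 RefSeq promoter windows of the same length, 14.1% held the RUNX letters, 32.7% GGGCGG and 45.8% the NF-kB letters. The letters for GATA (9.99% of windows), ETS (6.91%), STAT (7.02%) and AP-1 (6.75%) were not in these 3 windows. Of the 10 genes, 6 had a window in the RefSeq table (also Itgav, Itga1 and Itga2).

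Itgal, the alpha chain of LFA-1 (chromosome 7, 127296260 to 127335138, plus strand), rose by a smaller amount. Its level was 264.5, 283.5, 312, 355.5 and 295 CPM in IL-33 replicates 1 to 5, against 168, 267, 201 and 216 CPM in PBS replicates 1 to 4. PBS replicate 2 reached above IL-33 replicate 1, and the other PBS libraries lay below all IL-33 libraries. The log2 change was 0.50 ± 0.14 (SE, edgeR adjusted p = 0.0304). The call was lost without IL-33 replicate 3, 4 or 5 or PBS replicate 1, 3 or 4 (edgeR adjusted p 0.053 to 0.0856). It was also lost with library size alone as the scaling (0.151) and without IL-33 replicates 1, 2 and 3 together (0.11). The replicate block ended it too, alone (0.0919) or with the length and GC correction (0.0589), as did the threshold of 0.01. Itgal thus kept its call in 10 of 21 alternatives, with adjusted p from 0.01 to 0.151 over all of them.

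Itgb2, the beta chain shared by the leukocyte integrins (chromosome 10, 77530252 to 77565708, plus strand), did not pass the test. It had 305, 327, 473, 466 and 378 CPM in IL-33 replicates 1 to 5, against 289, 303, 375 and 256 CPM in PBS replicates 1 to 4. Of the PBS libraries only replicate 3 reached into the range of the IL-33 libraries, above IL-33 replicates 1 and 2. The log2 change was 0.35 (95% interval -0.024 to 0.72, edgeR adjusted p = 0.158).

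Itgav and Itgb3, which encode the vitronectin receptor, were both present and neither was called. Itgav (chromosome 2, 83724397 to 83806916, plus strand) had 95.7, 80.9, 93.9, 97.8 and 132 CPM in IL-33 replicates 1 to 5, against 87.7, 127, 62.7 and 86.5 CPM in PBS replicates 1 to 4. The groups overlapped over most of their range, with a log2 change of 0.14 (95% interval -0.33 to 0.61, edgeR adjusted p = 0.673). Its exons overlap Gm13684 on the opposite strand over 5.9% of their length, and that gene had 273 to 510 counts with IL-33 and 132 to 502 with PBS, against 906 or more for Itgav. Itgb3 (chromosome 11, 104608000 to 104670476, plus strand) had 116, 133, 111, 96.6 and 82.3 CPM in IL-33 replicates 1 to 5, against 116, 138, 76.5 and 114 CPM in PBS replicates 1 to 4. The highest and the lowest library were both PBS libraries, and the log2 change was -0.046 (95% interval -0.47 to 0.38, edgeR adjusted p = 0.884), a value whose sign changed under 6 alternatives, among them library size alone.

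Itgb3 is also known from platelets, where it pairs with Itga2b. Itga2b had 10 counts in IL-33 replicate 3, 96 counts in PBS replicate 2 and 0 counts in the other 7 libraries, while Itgb3 had 1856 to 2390 counts with IL-33 and 1196 to 2296 with PBS. The platelet and megakaryocyte list as a whole, of which 7 of 12 genes were among the genes counted, took 1.42 to 6.94 CPM of raw totals with IL-33 and 1.13 to 6.82 with PBS. Pf4 and Gp1ba, its leading genes, lay at 0.419 to 3.14 and 0 to 4.04 CPM with IL-33, and both at 0 to 1.06 or 1.07 CPM with PBS.

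**Figure D2:**
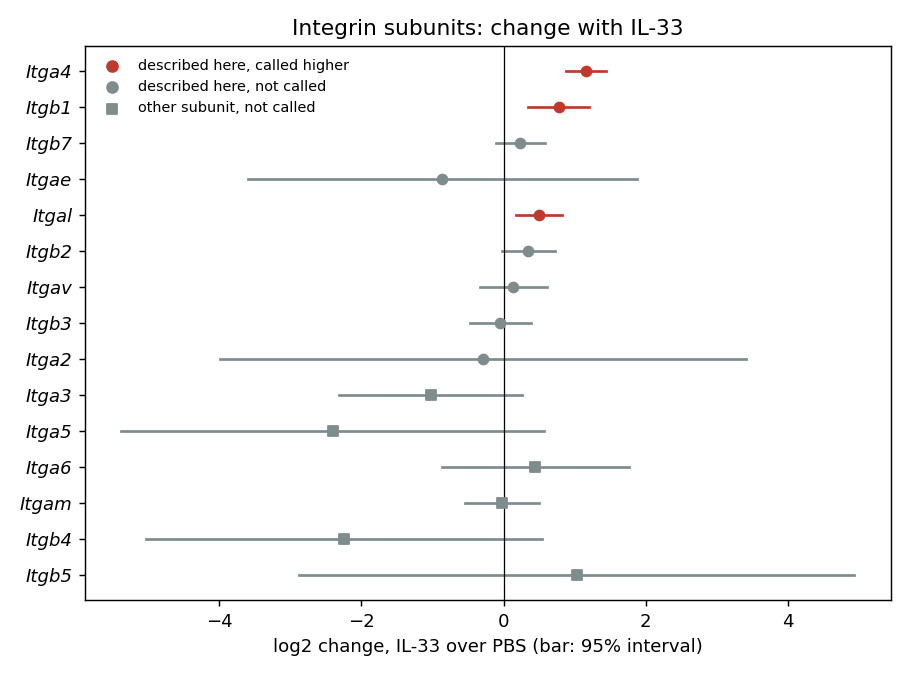
Log2 change of IL-33 over PBS with its 95% interval for the 9 integrin genes described here that were tested (circles) and 6 other subunits that were tested (squares). Red marks an edgeR adjusted p below 0.05. Itga4, Itgb1 and Itgal lie above 0 with their whole interval, and the intervals of Itgae and Itga2 span more than 5 log2 units.

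Itgae, Itga2 and Itga1 had few counts, at 0 to 87 a library, and differed widely between the PBS libraries. Itgae (chromosome 11, 73090583 to 73147446, plus strand), the chain that binds E-cadherin with Itgb7, had 14, 19, 25, 44 and 7 counts in IL-33 replicates 1 to 5, against 68, 1, 87 and 0 counts in PBS replicates 1 to 4. PBS replicates 1 and 3 were above all IL-33 libraries, and PBS replicates 2 and 4 below all of them. The log2 change was -0.86 with a 95% interval from -3.60 to 1.88 (edgeR adjusted p = 0.646), and its sign changed under 3 alternatives, so no direction can be given. Itga2 (chromosome 13, 114833081 to 114932100, minus strand), a collagen receptor chain, had 0, 28, 59, 0 and 0 counts in IL-33 replicates 1 to 5, against 34, 3, 45 and 1 counts in PBS replicates 1 to 4. Its log2 change was -0.29 with a 95% interval from -3.99 to 3.40 (edgeR adjusted p = 0.914), with the opposite sign under 6 alternatives.

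Itga1 (chromosome 13, 114953096 to 115101964, minus strand), the other collagen receptor chain, had 5, 7, 2, 2 and 0 counts in IL-33 replicates 1 to 5, against 0, 3, 54 and 86 counts in PBS replicates 1 to 4. Most of its reads thus lay in PBS replicates 3 and 4. With no filter its edgeR adjusted p was 0.136. The endothelial marker list took 155 and 172 CPM of raw totals in PBS replicates 3 and 4, against 38.1 and 68.5 in PBS replicates 2 and 1, and the fibroblast list 46.6 and 74.1, against 13.5 and 23.2. In the IL-33 libraries these lists took 7.29 to 36.7 and 3.68 to 17.2 CPM of raw totals. The levels of single genes that follow are TMM-scaled and not on the scale of these sums, above all in PBS replicate 4 (TMM factor 0.532). Plvap and Sparc led the lists by their mean over all libraries, with 40.6 and 26.6 CPM in PBS replicate 3 and 128 and 99.3 CPM in PBS replicate 4. Next by that mean were Ptprb, at 23.3 and 24.2 CPM in those libraries but also 24.4 CPM in PBS replicate 1, and Col1a2, at 15.8 and 7.83 CPM. The part of such cells in the Itga1 reads was not tested. Itga1 and Itga2 also mark NK cells and ILC1s. Of that list 4 of 12 genes were among the genes counted, and they took 1.64 to 10.3 CPM of raw totals with IL-33 and 0 to 5.70 with PBS. Ncr1, Eomes, Tbx21, Klra8, Klre1, Klra7, Klra4 and Klra9 were not among the genes counted. Gzma and Prf1 led this list, with Gzma at 1.55 to 7.78 CPM with IL-33 and 0 in all PBS libraries, and Prf1 at 0 to 0.0553 CPM and 0 to 4.58 CPM. A floor of 3 counts per library corresponds to 0.133 to 0.178 CPM over the IL-33 libraries and 0.152 to 0.286 CPM over the PBS libraries.

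Per kilobase of exon, which allows genes to be compared, the order of the levels was alike at the top in both groups. Itgb7 led with 334 ± 30.5 CPM per kilobase (SD, n = 5) with IL-33 and 284 ± 66.2 (SD, n = 4) with PBS, followed by Itgb2 at 128 ± 25.3 and 100.2 ± 16.5 and Itgal at 46.0 ± 5.25 and 32.5 ± 6.27. These 3 genes did not overlap in range with each other in either group. With IL-33 the next were Itgb1 at 25.6 ± 4.00, Itgb3 at 18.3 ± 3.26, Itga4 at 13.4 ± 1.21 and Itgav at 9.31 ± 1.77 CPM per kilobase. With PBS they were Itgb3 at 18.85 ± 4.35, Itgb1 at 15.0 ± 3.79, Itgav at 8.47 ± 2.49 and Itga4 at 6.001 ± 0.78. Neighbours among these 4 genes overlapped in range in both groups. With IL-33 each was nonetheless above the next within all 5 libraries, and with PBS within 3 of 4. Itgae, Itga2 and Itga1 came last, at 0.239, 0.124 and 0.00946 with IL-33 and 0.432, 0.150 and 0.1495 with PBS. With the length of the longest coding transcript in place of all exons, 8 of the 10 genes kept their rank in each group. By that length Itga4 came above Itgb3 in the mean with IL-33, and Itga1 above Itga2 in the mean with PBS.

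Ratios of integrin chains within a library, between the alternative beta partners of Itga4, between alpha chains or between chains that pair, do not depend on the scaling between libraries. Counts of Itgb7 per kilobase were 10.8, 14.8, 12.3, 12.95 and 15.3 times those of Itgb1 in IL-33 replicates 1 to 5, against 19.1, 20.6, 20.85 and 16.1 times in PBS replicates 1 to 4. All IL-33 libraries lay below all PBS libraries, and the mean was 13.25 ± 1.83 (SD, n = 5) with IL-33 and 19.2 ± 2.20 (SD, n = 4) with PBS. The ratio of Itgal to Itgb2 was 0.403, 0.402, 0.307, 0.355 and 0.363 with IL-33, against 0.271, 0.410, 0.249 and 0.393 with PBS, and the groups overlapped. The ratio of Itgav to Itgb3 was 0.454, 0.334, 0.464, 0.556 and 0.881 with IL-33, against 0.415, 0.505, 0.450 and 0.416 with PBS, and IL-33 replicate 5 alone reached 0.881. The ratio of Itgae to Itga4 was 0.0315 or less with IL-33 and 0.156 or less with PBS. Itga2 to Itgb1 was 0.0124 or less and 0.0190 or less, and Itga1 to Itgb1 0.000986 or less and 0.0237 or less.

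**Figure D3:**
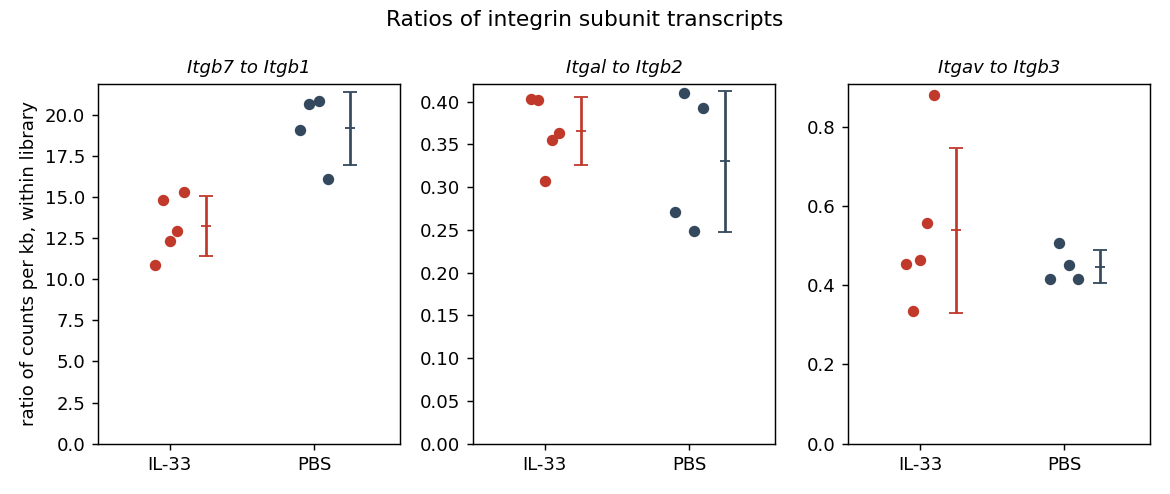
Ratio of counts per kilobase of exon between integrin subunits within each library, IL-33 (red, n = 5) left of PBS (dark, n = 4), with mean and SD beside the points and axes from 0. The Itgb7 to Itgb1 ratio lies at 10.8 to 15.3 with IL-33 and 16.1 to 20.85 with PBS, while the groups overlap for Itgal to Itgb2 and Itgav to Itgb3.

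Genes whose profile over the 9 libraries was most like that of a called integrin were named by the smallest root-mean-square distance of centred log2 CPM among 9065 genes. For Itga4 these were Degs1, a desaturase of ceramide synthesis, at 0.12 and Rps26, a ribosomal protein, at 0.14, where the median gene lay at 0.79. For Itgb1 they were Atp5mpl, a subunit of ATP synthase, at 0.16 and Fxyd5, a membrane regulator of the sodium pump, at 0.17 (median 0.70). For Itgal they were Mrpl40, a mitochondrial ribosomal protein, at 0.14 and Kif13b, a kinesin, at 0.15 (median 0.60).

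No other integrin subunit was called with edgeR on all 9 libraries. Of 16 further subunits 12 had counts and 6 were tested, with 0 called and 0 at an unadjusted p below 0.05. Among all genes 25.2% were called, and 19.4% were higher and 18% lower at that unadjusted p. With 6 genes tested, no contrast with these shares can be drawn. DESeq2 called 0 of the 6 and limma voom 1 (Itga5), which edgeR also called without IL-33 replicates 1, 2 and 3. Itga6, a laminin receptor chain, had 25.1, 22.3, 16.6, 29.7 and 15.6 CPM in IL-33 replicates 1 to 5, against 4.06, 5.67, 16.8 and 37.9 CPM in PBS replicates 1 to 4. Its PBS libraries spanned the whole range of the IL-33 libraries and beyond, with PBS replicate 4 the highest (log2 change 0.45, edgeR adjusted p = 0.616). Without that library the log2 change was 1.30 (edgeR adjusted p = 0.0812). Itgam, the CD11b chain of myeloid cells that pairs with Itgb2, had 7.24 to 10.96 CPM with IL-33 and 7.73 to 9.68 CPM with PBS (log2 change -0.025, edgeR adjusted p = 0.950), a value whose sign changed under 8 alternatives. Gm49368 shares 68.7% of the exon length of Itgam on the same strand, so its counts are uncertain. Itga5, the fibronectin receptor chain, had 2.49, 0.416, 2.33, 0 and 0 CPM with IL-33, against 8.13, 3.19, 1.67 and 9.26 CPM with PBS (log2 change -2.40, edgeR adjusted p = 0.218). Itga3 and Itgb4, chains of laminin receptors known from epithelium, averaged 1.54 and 0.571 CPM with IL-33 and 3.13 and 2.71 CPM with PBS. Itgb5, which pairs with Itgav, averaged 1.13 CPM with IL-33 and 0.567 CPM with PBS, with a log2 change of 1.03, or 2.81 without PBS replicate 4. The chain of CD11c, Itgax, had 104 counts in IL-33 replicate 4 and 0 in all other libraries.

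Of 25 tested genes of integrin activation 5 were called higher and 1 lower, where 13.7% and 11.6% of all genes were, with a median log2 change of -0.18. Fermt3, the kindlin of blood cells that binds beta chains, rose to 452.5 ± 58.0 CPM (SD, n = 5) with IL-33, against 262.5 ± 79.8 CPM (SD, n = 4) with PBS (log2 change 0.79, edgeR adjusted p = 0.0202). Leaving out PBS replicate 2 ended that call (edgeR adjusted p = 0.0617). Cib1, first known as a binder of the platelet alpha chain, rose by 0.89 (edgeR adjusted p = 6.2e-04) and Cytip, which restrains the LFA-1 regulator cytohesin, by 0.92 (edgeR adjusted p = 0.00619), the Cytip call being lost with library size alone (edgeR adjusted p = 0.0735). Flna and Itgb1bp1, which bind beta chain tails, were also called higher, by 0.42 and 0.61 (edgeR adjusted p = 0.0256 and 0.0364), with overlapping groups. Fermt2, the kindlin of other tissues, was lower at 0.601 ± 0.359 CPM with IL-33 against 7.21 ± 7.07 CPM with PBS (log2 change -3.57, edgeR adjusted p = 0.0204), with 17.3 CPM in PBS replicate 4, without which the call was lost (log2 change -2.68, edgeR adjusted p = 0.0604). Cd47, a partner of Itgav and Itgb3 and the most abundant gene of the list per length, averaged 699 CPM with IL-33 and 903 CPM with PBS (log2 change -0.37, edgeR adjusted p = 0.0546). Its adjusted p was below 0.05 in 6 of 21 alternatives, among them DESeq2 (0.0052), limma voom (0.0281) and edgeR without PBS replicate 4 (0.0117), and its log2 change was -0.073 with the trend with length and GC content removed.

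Of 30 tested genes of the adhesion complex and its signalling 4 were called higher and 4 lower, near the shares of 13.7% and 11.6% among all genes, with a median log2 change of -0.0060. Parvg, the parvin of blood cells in the complex behind beta chains, rose to 104 ± 12.4 CPM (SD, n = 5) with IL-33, against 45.9 ± 5.22 CPM (SD, n = 4) with PBS (log2 change 1.18, edgeR adjusted p = 3.4e-04). Rac2, the Rac GTPase of blood cells and the most abundant gene of this list per length, rose by 0.91 (edgeR adjusted p = 0.00393). Zyx and Actn4, which sit at actin filaments, rose by 0.88 and 0.85, close to the threshold (edgeR adjusted p = 0.0479 and 0.0427), and the groups overlapped for Actn4. Dock2, which activates Rac in lymphocytes, was lower by a log2 change of -0.68 (edgeR adjusted p = 0.013), a call lost with the trend with length and GC content removed (log2 change -0.21). Src, a tyrosine kinase, was lower at 2.02 CPM with IL-33 against 9.24 CPM with PBS (edgeR adjusted p = 0.0146). Nedd9 and Crk, adaptors of this pathway, fell by 0.66 and 0.92 (edgeR adjusted p = 0.0316 and 0.0324), with overlapping groups. Exons of Ilk overlap those of Taf10 on the opposite strand over 76.7% of their length, so its counts are uncertain.

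Of 21 tested genes of ligands 1 was called higher and 3 lower, where 13.7% and 11.6% of all genes were. The ligand list had a median log2 change of -0.78. Lgals3, a galectin that binds glycans of integrins, rose to 69.3, 143, 66.0, 117 and 95.3 CPM in IL-33 replicates 1 to 5, against 2.08, 1.99, 1.82 and 11.6 CPM in PBS replicates 1 to 4 (log2 change 4.54, edgeR adjusted p = 0.00117). Without PBS replicate 4 the log2 change was 5.63. Col1a2, Col4a1 and Col4a2, collagens of matrix and basement membrane, were called lower, at means of 0.310, 0.202 and 0.585 CPM with IL-33 and 6.79, 8.87 and 11.9 CPM with PBS. Col4a1 kept its call in 8 of 19 alternatives and Col4a2 in 5 of 20, and both lost it without PBS replicate 4 (edgeR adjusted p 0.177 and 0.133). Col1a2 lost its call without PBS replicate 3 (edgeR adjusted p = 0.0606). All 12 endothelial markers had counts, and their summed share lay at 7.29 to 36.7 CPM of raw totals with IL-33 and 38.1 to 172 with PBS. The groups did not overlap in it, and its part in the collagen and Fermt2 differences was not tested. Icam2, a ligand of LFA-1 and the most abundant of the list per length, averaged 60.05 CPM with IL-33 and 70.3 CPM with PBS (edgeR adjusted p = 0.395).

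Of 19 tested genes of other adhesion receptors 3 were called higher and 3 lower, near the shares of 13.7% and 11.6% among all genes. Spn, the sialomucin CD43, rose by 1.10 (edgeR adjusted p = 0.0016), and Cd48 and Cd226, receptors in contacts between leukocytes, by 1.10 and 0.96. Cd81 and Cd9, tetraspanins that associate with Itgb1 complexes, fell to 299 and 1.01 CPM with IL-33, against 520 and 42.5 CPM with PBS (log2 changes -0.80 and -5.36, edgeR adjusted p = 6.5e-04 and 0.00333). Scaled by library size alone, Cd81 was no longer called (log2 change -0.67, edgeR adjusted p = 0.0895). Epcam, an epithelial adhesion molecule, was called lower by 4.43 on the log2 scale. Cd82, also a tetraspanin and the most abundant of this list per length, averaged 1176 CPM with IL-33 and 1388 CPM with PBS (log2 change -0.24, edgeR adjusted p = 0.361), and was called without PBS replicate 1 (log2 change -0.41, edgeR adjusted p = 0.04).

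**Figure D4:**
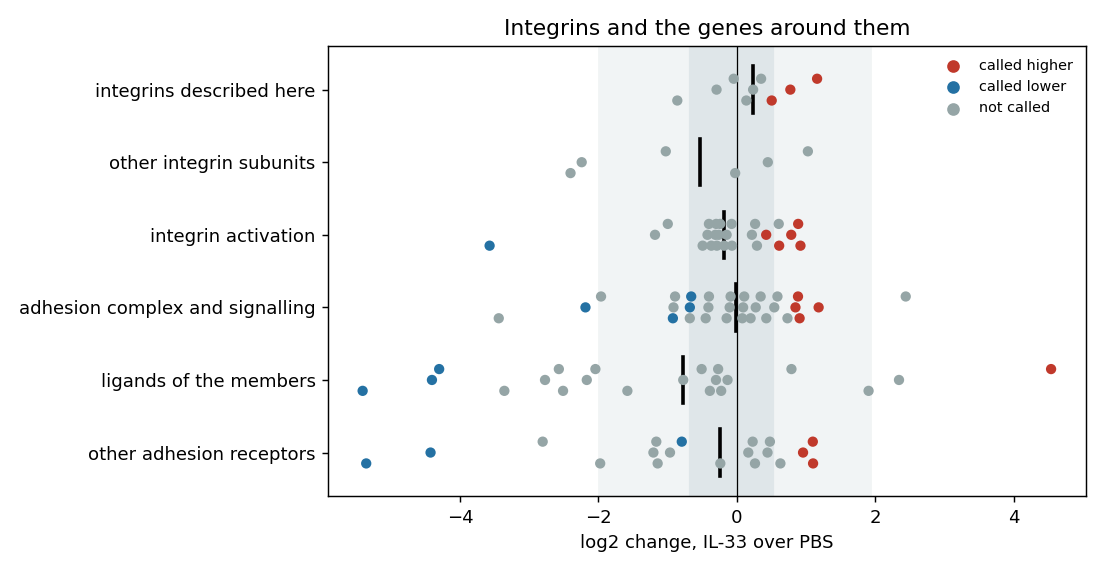
Log2 change of IL-33 over PBS for the tested genes of the integrins described here and of 5 lists around them, with red for called higher, blue for called lower and grey for not called, and a black bar at the list median. Shading gives the central 50% and 90% of all genes tested, and the medians lie between -0.78 for ligands and 0.23 for the integrins described here.

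Markers of other leukocytes that carry Itga4, Itgb1 or Itgb7, and of erythroid cells, were set beside these changes. Of the mast cell and basophil list 3 of 10 genes were among the genes counted, without Mcpt8, Ms4a2, Mcpt4, Tpsb2, Cma1, Mcpt1 and Tpsab1. The summed share of the 3 was 150 to 425 CPM of raw totals with IL-33 and 32.9 to 95.3 with PBS, with no overlap. Cpa3, which gave most of it, had 86.9 to 345 CPM with IL-33 and 9.60 to 45.8 CPM with PBS, and Hdc 35.6 to 58.3 CPM and 3.98 to 44.0 CPM. Of the myeloid list 15 of 16 genes were among the genes counted, of which Ccr2 gave most counts and Xcr1 came next. They took 1037 to 2007 CPM of raw totals with IL-33 and 940 to 2808 with PBS. The 940 lay in PBS replicate 4, where acinar markers took 54.5% of counts, and the other PBS libraries took 2212 to 2808. Of the T cell list 10 of 12 were among the genes counted, without Cd4 and Cd8a. They took 855 to 1082 CPM of raw totals with IL-33 and 505 to 1187 with PBS, led over all libraries by Trbc2 and Trbc1. The 505 lay in PBS replicate 4, and the other PBS libraries took 1084 to 1187. Trbc1 had 187 to 255 CPM with IL-33 and 274 to 373 CPM with PBS, and Cd3g, which encodes a CD3 chain, 231 to 342 and 221 to 299 CPM. Cd247 had 24.8 to 37.5 and 16.5 to 30.7 CPM. The rest of the list, Cd3e, Cd6, Trac, Cd3d, Cd5 and Cd8b1, had at most 9.38 CPM in any library. The B cell list, with 6 of 8 genes among those counted, took 66.6 to 136 and 7.15 to 29.7 CPM of raw totals, mostly from Cd79b, with Igkc next. The erythroid list, with 6 of 8 genes among those counted, took 424 to 3651 CPM of raw totals with IL-33 and 142 to 343 with PBS, with no overlap. It was led by Hba-a1 and Hba-a2. Within the IL-33 group it took 2314, 1407 and 3651 in replicates 1 to 3, against 567 and 424 in replicates 4 and 5. The part of all these cells in the integrin changes was not tested.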

How the data were processed

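RNA of sorted pancreatic ILC2s was made into libraries with a low-input kit from 5 to 15 ng and sequenced as paired reads of 150 nt, per the labels' protocols. The authors deposited whole-number counts per Ensembl gene. The build named in the submitters' processing notes is GRCm38.p6, and the tools are STAR 2.7.7a, Salmon 1.6.0, DESeq2, Picard, Trimmomatic 0.39 and FastQC 0.11.9. For what each tool served, the annotation and the strand setting, the answer is not given in the sources used here, so overlapping genes may share reads. The deposited normalized table was not used. Symbols (99.2% of genes), positions and exon lengths came from GENCODE M21 on GRCm38, and promoter windows from RefSeq.

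The main test was the two-sided quasi-likelihood F-test of edgeR 4.0.16 under R 4.3.3, with TMM scaling, robust fitting and filterByExpr at its minimum count of 10. Benjamini-Hochberg adjustment ran over 14405 genes. The fit was tested on simulated data. Intervals are 95% intervals from the quasi-likelihood fit, and floors of 3 counts cover counting error only. No pair of replicates was alike enough to be 1 library deposited again (chi-square per degree of freedom at least 52.6). Profiles for likeness used log2(CPM + 0.5). The alternatives were other scalings, filters and tests (DESeq2 1.42.0, limma 3.58.1 voom with sample weights), a replicate block, removal of acinar genes, a length and GC correction, a threshold of 0.01 and each library left out. Leaving out 3 IL-33 libraries was added after seeing the data.

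The integrins and all lists were chosen with earlier results of these data known. All 10 integrins and every tested further subunit are named, with the 4 called genes of smallest adjusted p and the most abundant gene per length of each pathway list, the 2 genes most like each called integrin (mean of at least 5 CPM) and the 2 leading genes of marker lists set beside a result. Other names (Itgax, Itgb1bp1, Flna, Zyx, Actn4, Nedd9, Crk, Ilk, Cd226, Epcam, Cd3g, Cd247, Cd3e, Cd6, Trac, Cd3d, Cd5, Cd8b1, Klrg1, Il5, Il13, Il7r, Icos, Bcl11b, Hes1) were chosen after their values were seen. Marker genes that were not among the genes counted were named after that too.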

Additional observations from a re-analysis of the deposited data

Results flagged for a closer look

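Of 82 groups of values checked for 1 library far from the others, 3 were flagged, where chance gives about 1 in 20. Itga3 had 2.97 CPM in IL-33 replicate 2, against 0.953 to 1.46 CPM in the other IL-33 libraries. Lgals3 had 11.6 CPM in PBS replicate 4, against 1.82 to 2.08 CPM in the other PBS libraries, and the log2 change of Lgals3 was 5.63 without it. Col4a1 had 30.5 CPM in PBS replicate 4, against 0.0603 to 2.99 CPM in the other PBS libraries. PBS replicate 4 was the library with 54.5% acinar marker counts.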

How the results depend on the processing

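Of the 10 integrins 3 were called higher. The number was 1 (Itga4) at a threshold of 0.01 or without IL-33 replicates 1, 2 and 3 together, 2 with library size alone, 2 with the replicate block and 2 to 3 with 1 library left out. None was called lower in any of these fits. Of the other subunits, 1 (Itga5) was called with limma voom (log2 change -4.10, adjusted p = 0.046) and without those 3 libraries. Over all genes 3633 were called (1967 higher, 1666 lower). The count was 1976 with library size alone (644 lower), 1786 (1019 higher, 767 lower) at a threshold of 0.01, 1396 (732 higher, 664 lower) without those 3 libraries and 2676 to 3695 with 1 library left out. With library size alone the median of all genes moved to 0.080. With the replicate block 1457 were called (791 higher, 666 lower), and 1001 (596 higher, 405 lower) with the block and the length and GC correction together. Same-numbered libraries did not deviate together (correlations -0.056 to 0.067), so the numbers were not taken as pairs, and with the block the calls of Itgal (adjusted p = 0.0919), Cytip (0.0638), Src (0.0754), Dock2 (0.0928), Fermt2 (0.142), Col4a1 (0.302) and Col4a2 (0.0587) were lost. Without those 3 libraries the calls of Fermt3 (edgeR adjusted p = 0.0936), Cd48 (0.0657), Src (0.106) and Dock2 (0.0725) were also lost. So were those of Fermt2 (0.148), Col1a2 (0.154), Col4a1 (0.165) and Col4a2 (0.277). With limma voom the calls of Fermt2 (adjusted p = 0.0733), Col1a2 (0.0556) and Col4a1 (0.206) were lost. Signs turned for genes that were not called, and the cause was not tested. Itga2 was at 0.022 with the length and GC correction and at -0.66 to 0.38 with 1 library left out. Itgae was at 0.49 with limma voom, 0.95 with the block and 1.03 with the block and the correction. Itgam was at 0.12 without those 3 libraries, 0.12 with the correction, 0.13 with correction and block, 0.078 with library size alone and -0.15 to 0.032 with 1 library left out. Itgb3 was at 0.11 with the correction, 0.22 with correction and block, 0.068 with library size alone, 0.059 with the block and -0.19 to 0.079 with 1 library left out. Itgav ran from -0.0064 to 0.34 with 1 library left out. Itgb5 was at -0.54 without those 3 libraries and Itgb7 at -0.010 with the correction. With 0 to 87 counts a library, depth limits what can be said of Itgae, Itga1 and Itga2.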
